A study of Mus musculus with 28 samples.

Results

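The 10 genes described here are 9 secreted or extracellular regulators of Wnt signaling and a membrane receptor, read across single mouse molars from the bud to the bell stage. They are Sostdc1, Dkk1, Dkk2, Dkk3, Sfrp1, Sfrp2, Frzb, Wif1, and Notum, with Lrp4 as the receptor of Sostdc1, chosen by name out of the 52636 genes in the deposited table of HTSeq counts. All 10 passed the filter on low counts, which kept 19101 genes. The tooth germs of E13, E14, and E16 came from wild type C57BL/6JOlaHsd embryos, with no transgene or treatment, and each library holds 1 tooth. There were 7 teeth each of E13 (bud stage, 7 embryos), E14 (cap stage, 6 embryos), and E16 (bell stage, 5 embryos), named by embryonic day. The labels place these stages at E13.5, E14.5, and E16.5, so the steps between them are not equally long, and a second table adds 6 teeth of 6 embryos labelled E15. A further E15 tooth in the labels, the right tooth of embryo 5, has no counts there and was not used. Each tooth germ of E13, E14, and E16 was dissected with a minimal amount of surrounding tissue. Epithelium, mesenchyme, and remains of neighboring tissue were thus read together. A change in a whole tooth does not tell apart a change in the number of cells that express a gene from a change in its RNA per cell.

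Wnt ligands carry a lipid group that docks them to Frizzled receptors, and canonical signaling also needs the co-receptors Lrp5 and Lrp6. Secreted inhibitors interrupt this at different points. Sfrp proteins, Frzb (also called Sfrp3), and Wif1 bind Wnt ligands outside the cell, Notum is an enzyme that removes the lipid from the ligand, and Dkk1 and Dkk2 bind Lrp5 and Lrp6. Dkk3 is a divergent family member whose receptor is less clear. Sostdc1 (also called ectodin or Wise) binds Wnt co-receptors and Bmp ligands, and Lrp4 is a receptor of the same family as Lrp5 and Lrp6 that binds Sostdc1. In the tooth, loss of Sostdc1 in mice alters the cusps and gives extra teeth. Dkk1, Notum, and Wif1 are also known as targets that Wnt signaling switches on in several tissues.

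Libraries held between 17814073 and 27115729 reads counted on genes. One tooth stood apart, the left tooth of embryo 3 at E16, in which the median absolute deviation of a gene from the median of its stage was 0.497 on the log2 scale, against 0.0737 to 0.158 in the other 20 teeth. It held the lowest normalized count of the E16 teeth for each of the 10 genes, between 0.223 (Sostdc1) and 0.812 (Lrp4) of the median of the other 6. In the same tooth the summed normalized counts of 8 dental epithelium markers were 43929 (75083 to 85059 in the other E16 teeth), those of 8 dental mesenchyme markers 27873 (40110 to 47984), and those of 6 endothelium markers 3474 (8316 to 10409), and the part of this in the results was not tested beyond leaving the tooth out. All 8 epithelium and all 8 mesenchyme markers were detected in every tooth. The enamel knot markers Fgf3 and Dkk4 were at 0 counts in at least 1 tooth at E13 and in no tooth at E14 or E16. Every value below is a normalized count, the count divided by the size factor of its library, unless another scale is named.

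**Figure D1:**
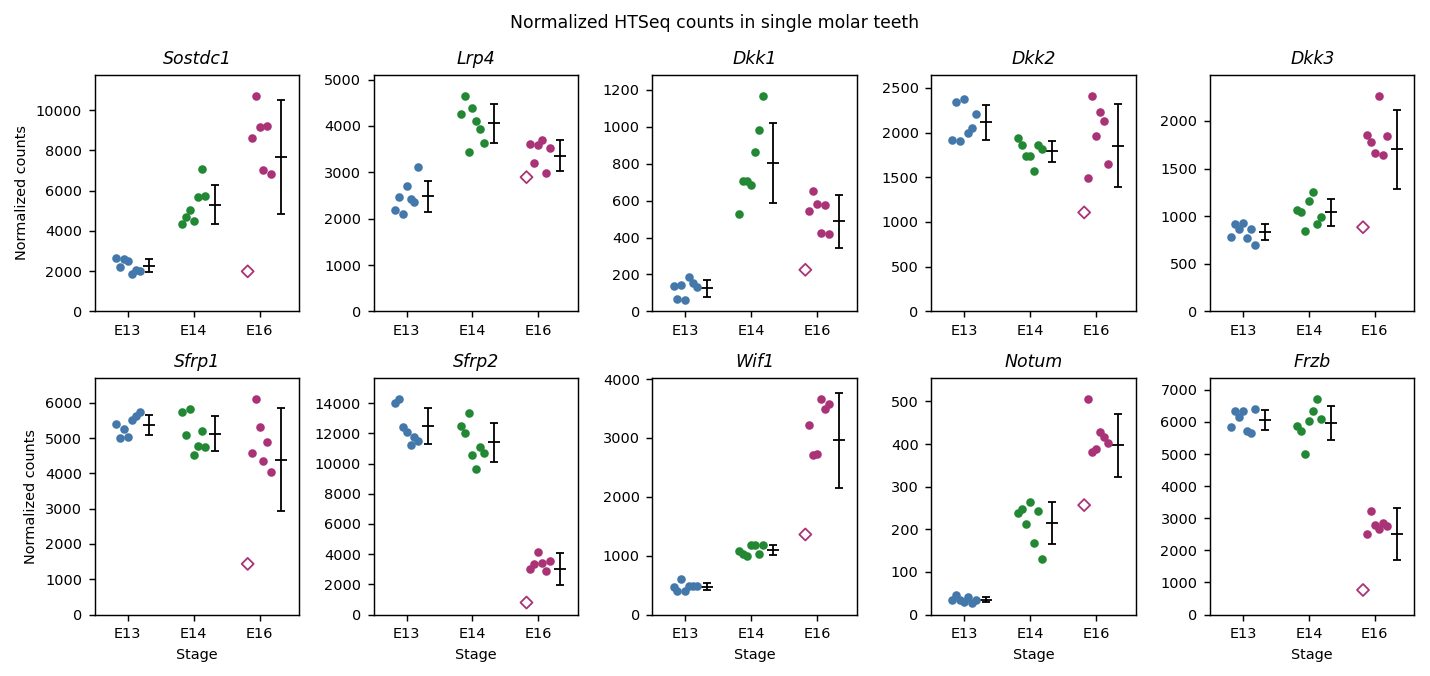
Normalized counts (vertical axes, linear, starting at 0) of the 10 genes in 7 teeth each of E13, E14, and E16. Each point is 1 tooth, the open diamond is the left tooth of embryo 3 at E16, and bars show mean and SD. Sfrp2 and Frzb are lower in all 7 E16 teeth than in any E13 or E14 tooth, whereas Wif1 is higher at each later stage without overlap.

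Sostdc1 (chromosome 12, 36314139 to 36318452, plus strand, GRCm38, as all positions) was read at 1862 to 2629 normalized counts in the E13 teeth with a median of 2212. At E14 the range was 4364 to 7091 with a median of 5027, so that every E14 tooth was above every E13 tooth. At E16 the level was 1987 in the left tooth of embryo 3 and 6842 to 10695 in the other 6. The rise from E13 to E14 was 2.34-fold (log2 fold change 1.23 ± 0.22, SE, adjusted p = 0.00019, edgeR quasi-likelihood test with Benjamini-Hochberg adjustment over all genes, n = 7 teeth per stage). From E14 to E16 the log2 fold change was 0.52 ± 0.21 and did not pass the test (adjusted p = 0.0675). Without the left tooth of embryo 3 it was 0.71 and passed (adjusted p = 2.48e-05). It also passed without the left E14 tooth of embryo 6, at 0.62 (adjusted p = 0.0397). Over the whole interval from E13 to E16, Sostdc1 rose by 1.75 ± 0.22 on the log2 scale (adjusted p = 4.79e-07), the value being 1.93 without that E16 tooth.

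Lrp4 (chromosome 2, 91457511 to 91513779, plus strand), which binds Sostdc1 and sclerostin at the cell surface, was highest at the cap stage. The E13 teeth held 2102 to 3122 normalized counts (median 2421), the E14 teeth 3433 to 4645 (median 4097), and the E16 teeth 2895 to 3689.7 (median 3535). The E13 and E14 ranges did not overlap, and those of E14 and E16 did. Lrp4 rose 1.64-fold from E13 to E14 (log2 0.71 ± 0.09, adjusted p = 2.07e-06) and fell by 0.28 ± 0.09 on the log2 scale from E14 to E16 (adjusted p = 0.0191). This fall did not pass when the right E14 tooth of embryo 2, the right E14 tooth of embryo 5, or the right E16 tooth of embryo 8 was left out (adjusted p = 0.0641, 0.0544, and 0.0602). At E16 Lrp4 remained above E13, by 0.43 ± 0.09 (adjusted p = 0.00028). Of the 10 genes, Lrp4 differed least between the left tooth of embryo 3 and the other E16 teeth.

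Because both counts come from 1 library, the ratio of Sostdc1 to Lrp4 does not depend on library size. In log2 units of the ratio of counts, the 7 E13 teeth lay between -0.66 and 0.32, the E14 teeth between 0.02 and 0.85, and the E16 teeth at -0.54 in the left tooth of embryo 3 and between 0.93 and 1.74 in the others. Sostdc1 thus had the higher count in 2 of 7 teeth at E13, 7 of 7 at E14, and 6 of 7 at E16. Exon lengths differ (1781 bases for Sostdc1, 10504 for Lrp4), so equal counts are not equal levels. Per kb of exon, the mean of Sostdc1 was above that of Lrp4 at each stage. The means were 1270 against 236 at E13, 2976 against 386 at E14, and 4295 against 320 at E16. The mean log2 ratio was higher by 0.51 at E14 than at E13 (exact permutation test over all splits of the 14 teeth, two-sided, adjusted p = 0.0262 over 9 tests of 3 ratios). The difference from E14 to E16 was 0.67 (adjusted p = 0.0649), and 0.93 without the left tooth of embryo 3 (exact permutation test, adjusted p = 0.00175). From E13 to E16 it was 1.18 (adjusted p = 0.00787, exact permutation test).

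The Dickkopf genes followed different courses. Dkk1 (chromosome 19, 30545863 to 30549665, minus strand), the canonical inhibitor of Lrp5 and Lrp6, was at 59.6 to 187 normalized counts at E13 (median 138), 525 to 1167 at E14 (median 706), and 225 to 652 at E16 (median 545). No E14 tooth overlapped the E13 teeth, and the lowest E16 tooth, the left one of embryo 3, was still above the highest E13 tooth. Dkk1 rose 6.37-fold from E13 to E14 (log2 2.67 ± 0.24, adjusted p = 1.66e-08) and fell from E14 to E16 by 0.72 ± 0.22 on the log2 scale (adjusted p = 0.0164). The log2 fold change was -0.59 without the left tooth of embryo 3 at E16 (adjusted p = 0.0215), and it did not pass without the left E14 tooth of embryo 8 (adjusted p = 0.0539).

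Dkk2 (chromosome 3, 132085292 to 132180304, plus strand), which also binds Lrp5 and Lrp6 and can act as an inhibitor or an activator depending on the partners present, was not called in any comparison of these stages. Its levels were 1910 to 2377 at E13, 1570 to 1938 at E14, and 1107 to 2408 at E16, with medians of 2048, 1819, and 1961, and all 3 ranges overlapped. The log2 fold change was -0.24 ± 0.12 from E13 to E14 (adjusted p = 0.155) and 0.05 ± 0.12 from E14 to E16 (adjusted p = 0.804). In the fit without the left tooth of embryo 3 at E16, the value from E13 to E14 passed at -0.24 (adjusted p = 0.0291), as it did when only these 2 stages were fitted (-0.24, adjusted p = 0.00542).

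Dkk3 (chromosome 7, 112116017 to 112159057, minus strand) was at 692 to 932 normalized counts at E13, 841 to 1251 at E14, and 884 to 2261 at E16, with medians of 863, 1039, and 1773. The left tooth of embryo 3 held the 884, and the other 6 E16 teeth began at 1640.0, above every E14 tooth. The log2 fold change from E13 to E14 was 0.32 ± 0.13 and did not pass (adjusted p = 0.0948), whereas without that E16 tooth it was 0.31 and passed (adjusted p = 0.00675). It also passed when only these 2 stages were fitted, at 0.32 (adjusted p = 0.00747). From E14 to E16 Dkk3 rose 1.63-fold (log2 0.71 ± 0.13, adjusted p = 0.000213), and from E13 to E16 it rose 2.03-fold. The count ratio of Dkk3 to Dkk2 within a tooth was higher by 0.55 on the log2 scale at E14 than at E13 (adjusted p = 0.00131, exact permutation test) and by a further 0.67 at E16 (adjusted p = 0.00315, exact permutation test).

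Wif1 and Notum rose at both steps. Wif1 (chromosome 10, 121033960 to 121100650, plus strand), a secreted protein that sequesters Wnt ligands, was at 406 to 603 normalized counts at E13 (median 479), 1003 to 1189 at E14 (median 1079.9), and 1360.2 to 3657 at E16 (median 3218). The ranges of the 3 stages did not overlap, even with the left tooth of embryo 3, which set the low end of E16. Wif1 rose 2.30-fold from E13 to E14 (log2 1.20 ± 0.15, adjusted p = 1.81e-06) and 2.69-fold from E14 to E16 (log2 1.43 ± 0.15, adjusted p = 4.42e-08).

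Notum (chromosome 11, 120653788 to 120661175, minus strand), the Wnt deacylase, had the lowest mean level of the 10 genes at each stage. It was at 26.5 to 46.1 normalized counts at E13 (median 33.9), 130.2 to 265 at E14 (median 239), and 257 to 505 at E16 (median 403). The E14 teeth were all above the E13 teeth. At E16 only the left tooth of embryo 3, at 257, lay within the range of E14, and the next lowest tooth held 381. The rise was 6.10-fold from E13 to E14 (log2 2.61 ± 0.17, adjusted p = 8.73e-11) and 1.84-fold from E14 to E16 (log2 0.88 ± 0.15, adjusted p = 7.51e-05), and 11.2-fold over both steps. Exons of the antisense genes Myadml2os and Notumos overlap Notum, and the strand setting of the counting is not stated, so that reads of these genes may be included.

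Of the Wnt-binding Sfrp proteins among the 10, Sfrp2 and Frzb fell and Sfrp1 was not called. Sfrp2 (chromosome 3, 83766321 to 83774316, plus strand) was at 11220.5 to 14267 normalized counts at E13 and at 9665 to 13351 at E14, with medians of 12101 and 11119 and a wide overlap. At E16 the range was 794 to 4119 with a median of 3354. The log2 fold change was -0.13 ± 0.19 from E13 to E14 (adjusted p = 0.689), and from E14 to E16 Sfrp2 fell by 1.93 ± 0.20 on the log2 scale (adjusted p = 6.63e-08), which is a 3.80-fold difference. Without the left tooth of embryo 3 the log2 fold change was -1.75 (adjusted p = 8.4e-14). Exons of the antisense gene Gm26771 overlap Sfrp2, with the same limit as for Notum.

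Frzb (chromosome 2, 80411970 to 80447625, minus strand) followed the same order of stages. Its levels were 5660.5 to 6415 at E13, 4987 to 6706 at E14, and 765 to 3233 at E16, with medians of 6161, 6025, and 2763. No E16 tooth reached the lowest E14 tooth. The log2 fold change was -0.03 ± 0.17 from E13 to E14 (adjusted p = 0.937), and from E14 to E16 it was -1.26 ± 0.18 (adjusted p = 5.41e-06), and -1.08 without the left tooth of embryo 3.

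Sfrp1 (chromosome 8, 23411502 to 23449632, plus strand) was not called between any of these stages. It was at 5016 to 5732 normalized counts at E13, 4536 to 5833 at E14, and 1435 to 6102 at E16, where the left tooth of embryo 3 held the 1435 and the other 6 teeth 4051 or more. The log2 fold change from E14 to E16 was -0.23 ± 0.17 (adjusted p = 0.35) and -0.06 without that tooth. Within a tooth, the log2 ratio of Sfrp2 to Sfrp1 counts was between 1.01 and 1.51 at E13, 1.02 and 1.24 at E14, and -0.86 and -0.19 at E16. Sfrp2 had the higher count in all 14 teeth of E13 and E14 and in 0 of 7 teeth at E16. Exon lengths differ (2153 bases for Sfrp2, 4372 for Sfrp1), so equal counts are not equal levels. Per kb of exon, Sfrp2 was still the higher at E16, at a mean of 1398 ± 491 (SD) against 1004 ± 335 for Sfrp1. In the log2 ratio of counts, the left tooth of embryo 3, at -0.85, lay among the other E16 teeth. The difference from E14 to E16 was -1.73 (exact permutation test, p = 0.000583, the smallest that 7 against 7 teeth can give, adjusted p = 0.00131), and from E13 to E14 it was -0.06 (adjusted p = 0.447, exact permutation test). These tests count teeth, some of them left and right of 1 embryo. Over the alternatives run, the adjusted p from E14 to E16 was up to 0.00779 (exact permutation tests).

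**Figure D2:**
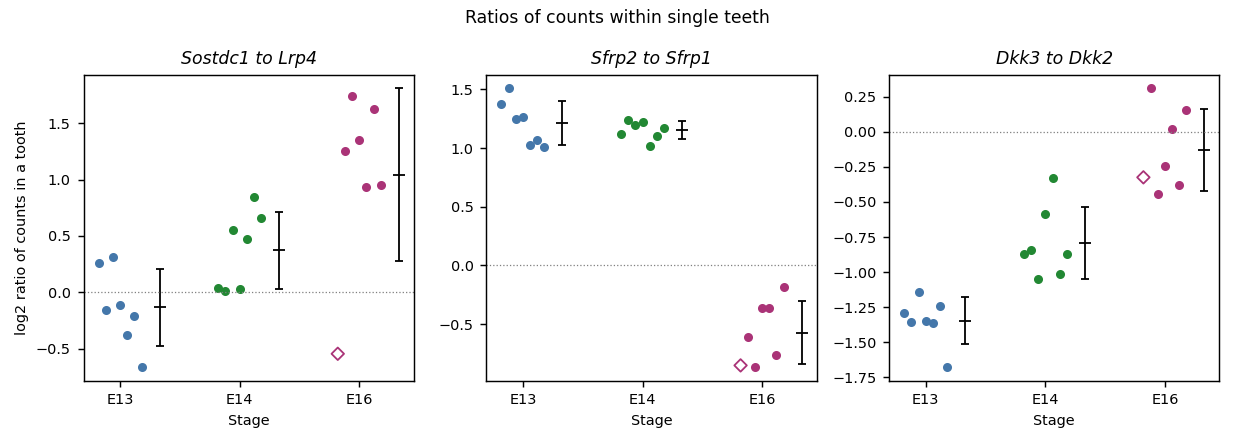
The log2 ratio of the counts of 2 genes within a tooth (vertical axes), for 7 teeth each of E13, E14, and E16. Points are teeth, the open diamond is the left tooth of embryo 3 at E16, and bars show mean and SD. The dotted line marks equal counts, which are not corrected for exon length and so are not equal levels. The Sfrp2 to Sfrp1 ratio is above 1 in all E13 and E14 teeth and below 0 in all E16 teeth.

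Counted together, 5 of the 10 genes rose from E13 to E14 and 0 fell, where 19.7% of all genes tested were called, 11.3% higher and 8.47% lower. The 5 were Sostdc1, Lrp4, Dkk1, Wif1, and Notum, and they were also the 5 whose E13 and E14 teeth did not overlap (9.92% of all genes). From E14 to E16, 3 rose (Dkk3, Wif1, Notum) and 4 fell (Lrp4, Dkk1, Sfrp2, Frzb), with 28.1% of all genes called, 15% higher and 13.1% lower. The teeth of E14 and E16 did not overlap for 3 of the 10 genes, Wif1, Sfrp2, and Frzb, against 10.8% of all genes. From E13 to E16, 6 rose and 2 fell, with 41.3% of all genes called, 21.6% higher and 19.6% lower. The median log2 fold change of the 10 genes was 0.51 from E13 to E14 and -0.09 from E14 to E16, and that of all genes tested was -0.01 and 0.00368. Both steps share the E14 teeth, and all values of a comparison come from one fit. The 10 genes were chosen with earlier results of these data known, so their counts beside these shares are not a test.

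**Figure D3:**
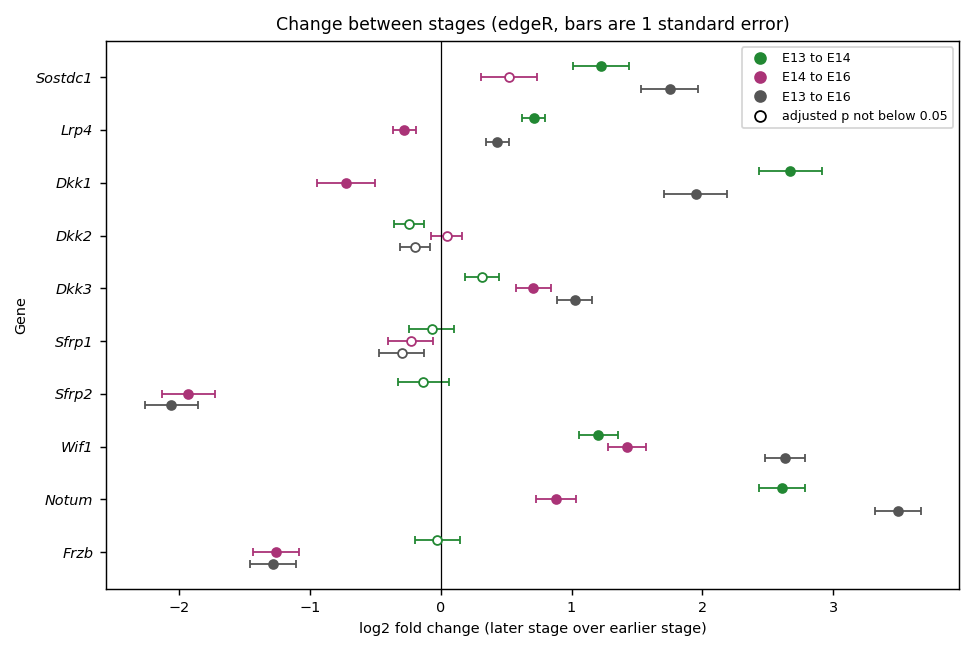
Log2 fold changes of the 10 genes (horizontal axis, later over earlier stage, edgeR) with bars of 1 standard error, for E13 to E14, E14 to E16, and E13 to E16. Filled points have an adjusted p below 0.05 and open points do not. Wif1 and Notum lie right of 0 at both steps, Lrp4 and Dkk1 change sides, and Sfrp2 and Frzb are left of 0 from E14 to E16.

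The labels place the stages at E13.5, E14.5, and E16.5. The mean of the log2 levels at E13 and E16 is therefore not the level that an even course over time would reach at E14. Without allowance for this spacing, the log2 level at E14 was set against that mean. The level at E14 was called above that mean for 5 of the 10 genes and below it for 0, with 13.7% of all genes called, 6.89% above and 6.84% below. The value was 1.70 ± 0.19 for Dkk1 (adjusted p = 5.89e-07) and 0.49 ± 0.07 for Lrp4 (adjusted p = 4.51e-05), which rose and then fell. It was 0.86 ± 0.13 for Notum (adjusted p = 6.76e-05), which rose more steeply at the first step than at the second. The value was 0.90 ± 0.16 for Sfrp2 (adjusted p = 0.000471) and 0.61 ± 0.15 for Frzb (adjusted p = 0.00562), in which the E13 and E14 teeth overlapped and only the E16 teeth lay apart. Wif1, at -0.11 ± 0.13 (adjusted p = 0.613), did not pass. This does not show an even course over time, as Wif1 rose by 1.20 at the first step and by 1.43 at the longer second step. Dkk3 was not called with all teeth (adjusted p = 0.285, edgeR). Without the left tooth of embryo 3 at E16 it was called below that mean (adjusted p = 0.0149, edgeR).

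The paper describes no mouse teeth of E15, so its strain and dissection are not given for them. A difference between E15 and another stage cannot be told apart from one between sets of samples. E15 teeth (6 teeth of 6 embryos) are held with the E13 and E16 teeth in a separate table of counts estimated by salmon. They are compared only within that table. It lists 9 of the 10 genes, all but Dkk1, and their salmon counts were 0.913 to 0.983 of the HTSeq counts at the median tooth. Between E13 and E15, 5 of the 9 rose and 1 fell, with 26.8% of all 13447 genes called, 18.3% higher and 8.49% lower. Notum rose by 2.65 ± 0.21, Wif1 by 1.65 ± 0.17, Sostdc1 by 1.46 ± 0.23, Dkk3 by 0.69 ± 0.13, and Lrp4 by 0.50 ± 0.11 on the log2 scale, with adjusted p between 1.37e-09 and 0.00194. Sfrp2 fell by 0.57 ± 0.20 (adjusted p = 0.038), from 10911 to 13792 normalized salmon counts at E13 to 6494 to 8942 at E15, without overlap. This call was lost when any of 9 teeth was left out (adjusted p up to 0.0869), namely the E13 teeth of embryos 1, 2, 3, 5, and 9 and the E15 teeth of embryos 1, 5, 6, and 8.

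From E15 to E16, 2 of the 9 rose and 2 fell, with 6.33% of all genes called, 3.64% higher and 2.69% lower. Wif1 rose by 1.00 ± 0.17 (adjusted p = 0.000453) and Notum by 0.89 ± 0.19 (adjusted p = 0.00359), whereas Sfrp2 fell by 1.48 ± 0.20 (adjusted p = 4.54e-05) and Frzb by 0.81 ± 0.18 (adjusted p = 0.00493). All 6 E15 teeth were above all 7 E16 teeth for Sfrp2, whose E16 range was 862 to 3915, and for Frzb, at 3370.0 to 4914 against 819 to 3055. The lowest and highest E15 tooth lay between the E13 and the E16 medians for Sfrp2, Frzb, Wif1, Notum, Sostdc1, and Dkk3. Without the left tooth of embryo 3 at E16, Sostdc1 (0.47, adjusted p = 0.0487) and Dkk3 (0.46, adjusted p = 0.00495) also passed from E15 to E16, and Frzb fell from E13 to E15 by 0.46 (adjusted p = 4.15e-05, against 0.0576 with all teeth). Among the E15 teeth the spread of Dkk2 was wide, from 1332 to 3275 with a coefficient of variation of 33.4%, against 8.87% at E13.

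**Figure D4:**
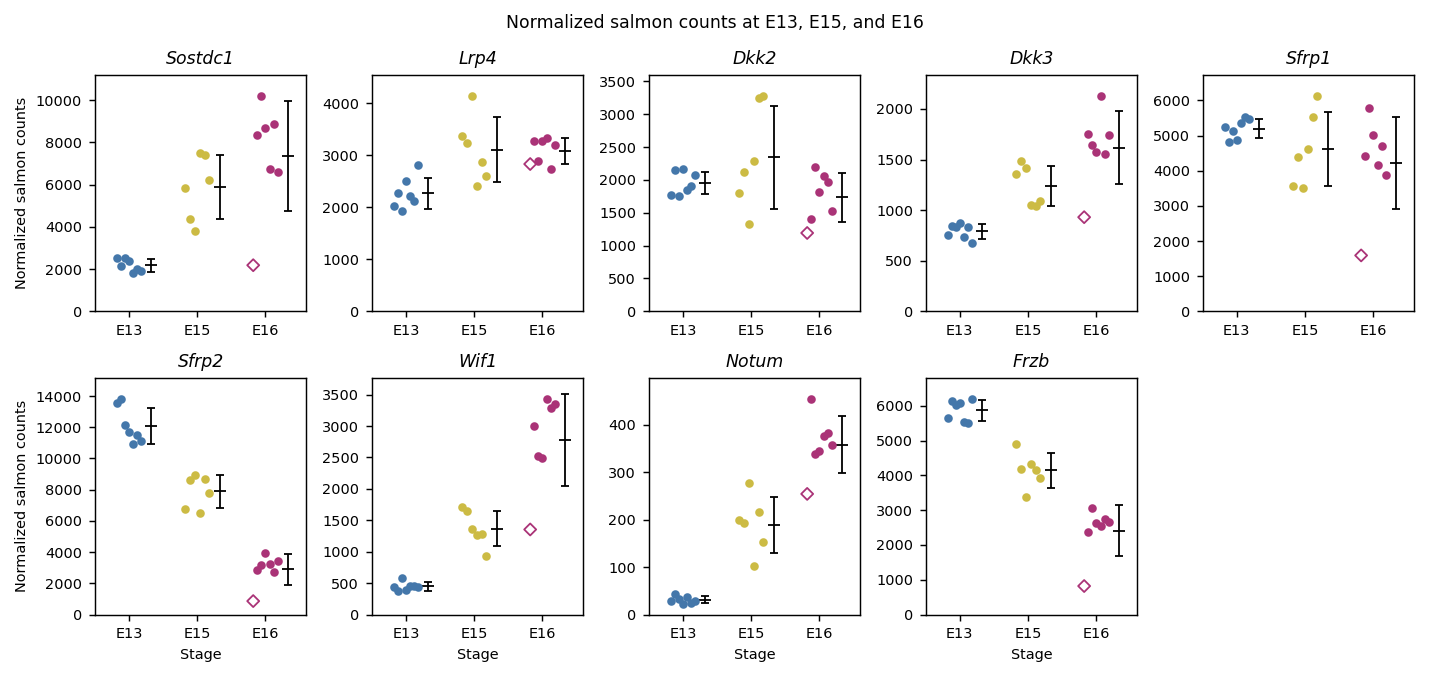
Normalized salmon counts (vertical axes, linear, starting at 0) of 9 of the genes in 7 teeth of E13, 6 of E15, and 7 of E16. Points are teeth, the open diamond is the left tooth of embryo 3 at E16, and bars show mean and SD. Sfrp2 and Frzb step down from E13 over E15 to E16 without overlap between stages.

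Divided by exon length, the levels of different genes can be ordered within a stage. At E13 Sfrp2 was highest at 5797 ± 558 normalized counts per kb of exon (SD, n = 7 teeth), followed by Frzb at 1874 ± 97.5, and Notum was lowest at 14.6 ± 2.8 after Dkk1 at 51.8 ± 19.1. Sostdc1 (1270.2 ± 180 per kb) and Sfrp1 (1228 ± 63.6) overlapped in their teeth, as did Dkk3, Lrp4, and Wif1 between 196 and 248 per kb. At E14 Sostdc1 had passed Frzb, at 2976 ± 540 per kb against 1843 ± 166 without overlap, and Sfrp2 was still the highest at 5299 ± 590. Dkk2, Wif1, Lrp4, Dkk1, and Dkk3 each overlapped with the next between 483 and 309 per kb, and Notum was apart at 89.2 ± 20.4. At E16 Sostdc1 led at 4295 ± 1589 per kb with Sfrp2 at 1398 ± 491 and Wif1 at 1220.2 ± 331. With the left tooth of embryo 3 included, neighbors in the E16 order overlapped, except Lrp4 (320 ± 31.1 per kb) and Dkk1 (201 ± 59.3).

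**Figure D5:**
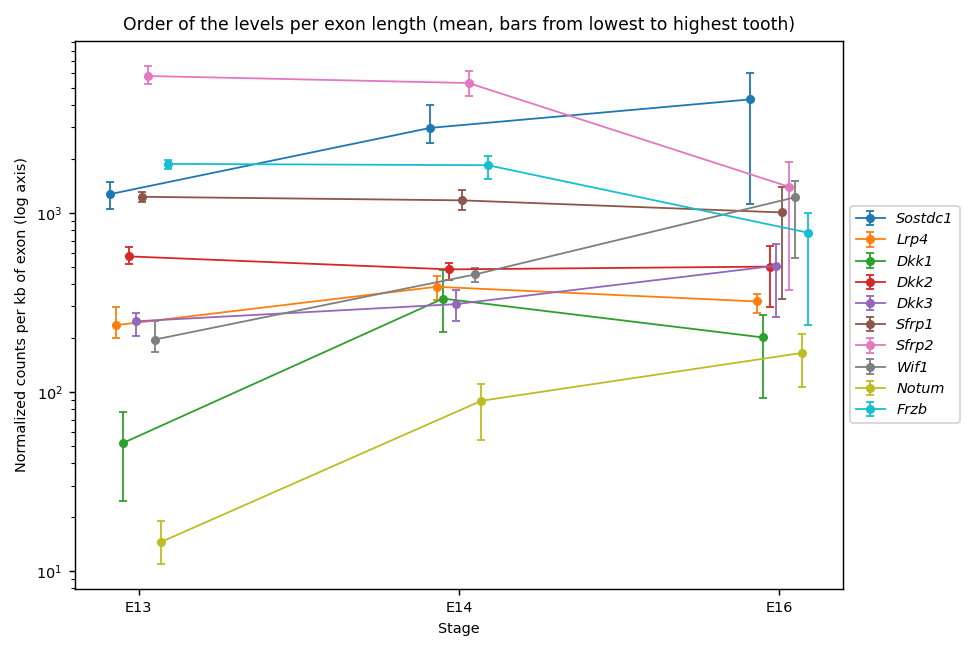
Mean normalized counts per kb of exon (vertical axis, logarithmic) of the 10 genes at E13, E14, and E16, with bars from the lowest to the highest of 7 teeth. Sfrp2 is the highest at E13 and E14 and Sostdc1 at E16, while the mean of Notum is the lowest at each stage.

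Upstream sequence was read for genes that rose, fell, or were not called, to show what the windows hold. RefSeq promoter windows on GRCm38.p6 were found for 5 of the 10 genes (Wif1, Dkk1, Dkk2, Sfrp2, Frzb). For Dkk1 and Frzb the GENCODE annotation places the gene start 169 and 229 bases further upstream than RefSeq, so they are not printed. Shown 5′ to 3′ are the bases upstream of both annotated starts, at chr10:121033754-121033959 for Wif1 (rose at both steps), chr3:83766071-83766320 for Sfrp2 (fell from E14 to E16), and chr3:132085042-132085291 for Dkk2 (not called), all on the plus strand. Capitals mark the core letters CTTTG of the motif of Tcf and Lef factors, searched on both strands.
Wif1: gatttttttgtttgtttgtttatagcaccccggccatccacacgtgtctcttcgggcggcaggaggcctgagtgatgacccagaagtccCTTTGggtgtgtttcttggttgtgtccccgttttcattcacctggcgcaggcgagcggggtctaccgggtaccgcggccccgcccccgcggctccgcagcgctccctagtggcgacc
Sfrp2: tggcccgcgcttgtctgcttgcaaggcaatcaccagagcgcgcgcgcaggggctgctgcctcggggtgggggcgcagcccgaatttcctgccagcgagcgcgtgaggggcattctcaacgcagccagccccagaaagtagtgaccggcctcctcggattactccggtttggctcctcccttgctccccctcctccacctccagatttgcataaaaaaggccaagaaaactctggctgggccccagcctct
Dkk2: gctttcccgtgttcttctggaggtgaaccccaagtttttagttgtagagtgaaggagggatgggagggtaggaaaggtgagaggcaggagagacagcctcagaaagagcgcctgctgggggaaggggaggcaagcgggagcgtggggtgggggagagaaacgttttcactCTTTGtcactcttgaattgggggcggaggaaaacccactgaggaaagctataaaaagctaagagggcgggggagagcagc

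The core letters occurred in the 250 bases before the RefSeq start of 4 of these 5 genes and of 48.6% of all 32851 promoter windows of that length. Dkk1 held 4 copies, Wif1, Dkk2, and Frzb 1 each, and Sfrp2 0. The longer form CTTTGAT, which contains the core and was also searched on both strands, was in 0 of the 5 and in 3.21% of all windows. These matches describe letters only.

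Markers of the tissues themselves moved between the stages. All 8 dental epithelium markers rose from E13 to E14 and again from E14 to E16, by 0.83 and 0.70 in the mean of their log2 levels, and their summed level went from 17776 to 27721 normalized counts per tooth at E13 to 38754 to 47172 at E14. None of the 8 dental mesenchyme markers rose, and 3 fell from E13 to E14 and 5 from E14 to E16, with mean changes of -0.22 and -0.68. Their summed level was 78487 to 84579 at E13, 66374 to 74904 at E14, and 27873 to 47984 at E16. All 7 enamel knot markers rose from E13 to E14, from sums of 148 to 498 to sums of 2211 to 3388. At E16 the sums were 1845 to 5897, with Shh alone at a median of 3987 against 1304 at E14. Medians of Fgf4, Fgf3, Fgf20, and Slit1 were lower at E16 than at E14, and those of Shh, Dkk4, and Cdkn1a were higher. Among markers of tissues next to the tooth, the sum of 7 skeletal muscle markers had a median of 241 at E13, where 1 tooth reached 5873, 300.4 at E14, and 127 at E16, and 2 of the 6 tested were lower at E14 than at E13. Of the macrophage markers, 3 of 6 rose from E13 to E14, and of the endothelium markers, 1 of 6. At that step 2 of 5 cartilage markers tested fell, and 1 of 6 bone markers rose. Of 5 red blood cell markers 1 rose and 1 fell, as of 6 Schwann cell and neuron markers. From E14 to E16, 1 of the 7 enamel knot markers rose and 3 fell. Of all genes tested, 19.7% were called from E13 to E14 (11.3% higher, 8.47% lower). From E14 to E16 the share was 28.1% (15% higher, 13.1% lower). The part of these tissues in the changes of the 10 genes was not tested.

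In a reading chosen after the data were seen, genes were set against tissue markers picked by their own direction of change from E13 to E16. Sfrp2 and Frzb, called lower, were set against the mesenchyme markers, and Dkk2 and Sfrp1, not called, were left out. The choice does not show in which tissue a gene is expressed. The 6 genes called higher were set against the mean log2 level of the epithelium markers in the same tooth and compared again between stages. Dkk1 was higher at E14 than at E13 by 1.90 and Notum by 1.74 (adjusted p = 0.00117 for both, exact permutation tests), and the differences for Sostdc1 (0.39) and Wif1 (0.39) were smaller than their fold changes and passed (adjusted p = 0.0236 and 0.0255, exact permutation tests over 24 values, n = 7 teeth per stage). From E13 to E16, Wif1 was higher by 1.06 and Notum by 1.94 (adjusted p = 0.00117 for both, exact permutation tests), whereas Sostdc1 differed by 0.10 (adjusted p = 0.702, and 0.26 without the left tooth of embryo 3 at E16) and Dkk1 by 0.46 (adjusted p = 0.271, exact permutation tests). In the same comparison the difference was -1.08 for Lrp4 (adjusted p = 0.00117) and -0.53 for Dkk3 (adjusted p = 0.00215, exact permutation tests). On this scale Wif1 was higher by 0.67 at E16 than at E14, and the difference was -1.44 for Dkk1 and -0.97 for Lrp4 (adjusted p = 0.00117 for each, exact permutation tests). At this step Notum, at 0.20 (adjusted p = 0.255), Sostdc1, at -0.30 (adjusted p = 0.228), and Dkk3, at -0.02 (adjusted p = 0.857), did not pass in the exact permutation tests. Against the mesenchyme markers, the difference between E16 and E14 was -1.37 for Sfrp2 and -0.68 for Frzb (adjusted p = 0.00117 for both, exact permutation tests). From E13 to E14 Frzb was higher by 0.19 on this scale (adjusted p = 0.00466) and Sfrp2 by 0.09 (adjusted p = 0.33, exact permutation tests). The tests relative to markers count teeth, some of them left and right of 1 embryo, and were not repeated per embryo.

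The counts of the lists that follow stand beside 19.7% of all genes called from E13 to E14 (11.3% higher, 8.47% lower) and 28.1% from E14 to E16 (15% higher, 13.1% lower). Of 7 other secreted Wnt antagonists, 5 passed the filter. Of these, 2 rose from E13 to E14 and 2 from E14 to E16, and 0 fell. Dkk4, an inhibitor made by the enamel knot, rose by 6.11 ± 0.58 on the log2 scale from E13 to E14, and Sfrp5 by 2.84 ± 0.44. Sfrp4 rose by 2.15 ± 0.23 and Sfrp5 by a further 1.31 ± 0.36 from E14 to E16. Of 7 tested genes for receptors, co-receptors, and related proteins, Kremen1, the Dkk receptor, rose at both steps (0.38 ± 0.09 and 0.53 ± 0.09). From E14 to E16 the membrane Wnt inhibitor Apcdd1 rose by 0.58 ± 0.18 and the co-receptor Lrp6 fell by 0.28 ± 0.07.

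R-spondins amplify Wnt signaling through Lgr receptors, and of 9 genes of this list, 5 rose and 1 fell from E13 to E14, and 4 rose and 1 fell from E14 to E16. Rspo4 rose by 3.78 ± 0.36 and Lgr6 by 0.92 ± 0.13 at the first step. At the second, Rspo2 rose by 2.04 ± 0.10 and Rspo3 fell by 1.51 ± 0.13. Of 8 genes that Wnt signaling commonly induces, 5 rose and 1 fell from E13 to E14. The rises were led by Sp5 (2.004 ± 0.28) and Tcf7 (0.64 ± 0.21), and the gene that fell was Axin2 (-0.37 ± 0.11). From E14 to E16, 4 rose, led by Tcf7 (1.31 ± 0.21) and Bambi (0.83 ± 0.10). Of 10 Bmp ligands and antagonists, which Sostdc1 joins as a Bmp antagonist, 3 rose and 1 fell from E13 to E14, with Bmp5 at -1.13 ± 0.23 and Bmp3 at 1.04 ± 0.16. From E14 to E16, 4 rose and 2 fell, with the Bmp antagonist Grem1 at -2.17 ± 0.20 and Bmp3 at 1.74 ± 0.16. In the Wnt pathway list of the study, 59 genes were tested besides these members, of which 13 rose and 6 fell from E13 to E14 and 17 rose and 9 fell from E14 to E16.

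Over the 21 teeth, the protein-coding genes most like each member in log2 CPM were searched among 14564 genes. The teeth share stages and the deviating E16 tooth, and the correlations are given as descriptions. Notum was most like Sp6 (Pearson r = 0.987), a transcription factor of dental epithelium, and Wif1 was most like Rassf2 (r = 0.982). Sfrp2 and Frzb had Cyp26b1, an enzyme that breaks down retinoic acid, and Tenm3 in common among their closest 3 genes, with Cyp26b1 at r = 0.982 for Sfrp2 and Six2 at r = 0.981 for Frzb. Lrp4 was most like Adcy7 (r = 0.962), followed by the enamel knot signal Fgf4 (0.941) and the Fgf target Etv4 (0.940). For Dkk1 the closest were P2rx7 (0.950), Runx1 (0.947), and Dusp5 (0.941), and for Sostdc1 they were Fam120a (0.976), Tagln2 (0.970), and Anxa5 (0.969). Dkk3 was most like Elf1 (0.953), Sfrp1 like Basp1 (0.961), and Dkk2, with the weakest likeness, like Exoc7 (0.829). Without the left tooth of embryo 3 at E16, a reading added after the data were seen, the last 2 were 0.659 for Sfrp1 and 0.644 for Dkk2, while the other values given here stayed at 0.940 or above.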

How the data were processed

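After quality filtering (FastQC, AfterQC, Trimmomatic), the authors mapped reads to GRCm38 (Ensembl release 90) by STAR and deposited whole-number counts per gene made with HTSeq for single teeth of E13, E14, and E16, and, in a second table, estimated counts per gene from salmon for E13, E15, and E16. The salmon index and the strand setting are not given in the sources used here. One column label, with an X in place of the embryo number, was read as embryo 10 of E13.

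Gene names, coordinates, and exon lengths were taken from GENCODE M21 (147 identifiers absent), and the 10 genes by symbol. Genes were tested with edgeR 4.0.16 (quasi-likelihood, TMM, filterByExpr, 1 fit of 21 libraries with stage, Benjamini-Hochberg adjustment, threshold 0.05) in R 4.3.3. The salmon table was fitted separately. Normalized counts used DESeq2 1.42.0 size factors. Ratios used log2 of counts plus 1 and exact permutation tests (scipy 1.17.1). Between teeth the fit estimated a coefficient of variation of 21.2%. For low counts, such as those of Notum at E13, counting error adds to this. Replicates are separate teeth, some of them left and right of 1 embryo. No replicate pair agreed within sampling noise (chi-square per degree of freedom at least 7.21). Tests were checked on simulated data.

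The members and lists were chosen with earlier results of these data known. Named outside the 10 genes were up to 2 called genes per list and step with the largest change, and Axin2, which fell. For each member, up to 3 genes with the highest correlation were named. Alternatives were RLE size factors, no filter, DESeq2, teeth of 1 embryo summed, only 2 stages, side or embryo number as a factor, a pseudocount of 0.1, and each tooth left out. From E13 to E16 the salmon counts were a further alternative.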

Additional observations from a re-analysis of the deposited data

Results flagged for a closer look

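Of 48 groups of teeth examined for a single far value (each gene and count ratio in each stage), 6 had one by Dixon's test at the 95% level, where chance gives about 1 in 20. In 4 of them it was the left tooth of embryo 3 at E16. That tooth held 794 normalized counts of Sfrp2 against 2866 to 4119 in the other 6 E16 teeth, 1360.2 of Wif1 against 2716 to 3657, and 765 of Frzb against 2494 to 3233. Its log2 count ratio of Sostdc1 to Lrp4 was -0.54, against 0.93 to 1.74 in the others. At E13, the left tooth of embryo 3 was the highest for Wif1, with 603 normalized counts against 406 to 487 in the other 6. The log2 count ratio of Dkk3 to Dkk2 was lowest in the left E13 tooth of embryo 10, at -1.67 against -1.36 to -1.14.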

How the results depend on the processing

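The number of the 10 genes called stayed within 1.5 times its value under every alternative run: 5 to 7 from E13 to E14, 6 to 8 from E14 to E16, and 7 or 8 from E13 to E16. The last range includes the salmon counts, in which 7 of 9 genes tested were called. Leaving out 1 tooth at a time moved the log2 ratio of Sostdc1 to Lrp4 between 0.42 and 0.58 from E13 to E14 (adjusted p 0.018 to 0.0524, exact permutation tests). It no longer passed without the E13 teeth of embryos 7 and 10, the right E14 tooth of embryo 3, or the left E14 teeth of embryos 6 and 8. From E14 to E16 the range was 0.55 to 0.93 (adjusted p 0.00175 to 0.125, exact permutation tests). In the other alternatives the adjusted p of this ratio was up to 0.048 from E13 to E14 and up to 0.146 from E14 to E16 (exact permutation tests). Values near 0 changed sign: Frzb from E13 to E14 ranged from -0.057 to 0.011 over teeth left out, Dkk2 from E14 to E16 from -0.012 to 0.15 and to -0.0023 with the teeth of 1 embryo summed, the Sfrp1 contrast of E14 (2 times E14, minus E13 and E16) from -0.0083 to 0.24, and Lrp4 from E15 to E16 from -0.10 to 0.069. The fall of Lrp4 from E14 to E16 was -0.26 with teeth of 1 embryo summed and did not pass (adjusted p = 0.0674). The causes were not tested.

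Relative to epithelium markers, the sign reversed for Sostdc1 from E14 to E16 (-0.30, and -0.13 without the left tooth of embryo 3), Lrp4 from E13 to E14 (-0.11) and from E13 to E16 (-1.08), and Dkk3 from E13 to E14 (-0.51), E14 to E16 (-0.021), and E13 to E16 (-0.53). Relative to mesenchyme markers it reversed for Sfrp2 (0.086) and Frzb (0.19) from E13 to E14. Each gene's markers were picked by its own direction of change from E13 to E16.

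Embryo numbers are shared between stages by label only. Deviations of same-numbered teeth correlated at -0.09 to 0.20 over 15 pairs, 3 of them above 0.1, and 5 of 19 teeth correlated best with their own number. With embryo number as replicate block, 5, 7, and 8 members were called in the 3 comparisons, Lrp4 from E15 to E16 was 0.084, Dkk2 passed there at -0.72, and Sfrp2 did not pass from E13 to E15 (-0.73, adjusted p = 0.116). Over all genes, the block called 1677 from E13 to E14 against 3767, and 1828 against 3599 from E13 to E15. Without the left E16 tooth of embryo 3, 5855 genes were called from E13 to E14, 3995 for E14 against its neighbors (2622 with it), and 1382 from E15 to E16 (851 with it). From E13 to E15, edgeR called 2457 genes higher and 1142 lower and DESeq2 2411 and 1734.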
